A study of Rattus norvegicus with 30 samples.

Results

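GABAergic interneurons are the inhibitory neurons of the hippocampus. They make the transmitter γ-aminobutyric acid (GABA) from glutamate with 2 glutamate decarboxylases, encoded by Gad1 and Gad2, and load it into vesicles with the transporter encoded by Slc32a1. Their precursors arise in the ventral forebrain under transcription factors of the DLX family, and LHX6 then acts in the lineage of cells that come from the medial ganglionic eminence, many of which make the peptides somatostatin and neuropeptide Y.

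The members described here are 9 genes of this cell class, taken by symbol out of the 21993 genes listed in the tables. They are the synthesis and loading genes Gad1, Gad2 and Slc32a1, the homeobox genes Dlx1, Dlx2, Dlx5 and Lhx6, and the peptide genes Sst and Npy. The group was selected on a value measured in these samples, the fall of Gad2 after 24 h of cannabidiol (CBD), so the values of all members in that contrast are given as a description, with no test. Expression was measured by RNA sequencing of polyadenylated RNA in 30 libraries, 3 for each of 10 groups. Primary hippocampal neurons of Wistar rats, prepared at embryonic day 18 and kept for 7 days in culture, received 30 µM dimethyl fumarate (DMF), 30 µM monomethyl fumarate (MMF) or their vehicle dimethyl sulfoxide (DMSO) at 0.2%, or 6 µM CBD or its vehicle ethanol (EtOH) at 0.2%, each for 4 or 24 h. DMF is the dimethyl ester of fumaric acid and MMF the monomethyl ester. The 3 replicates of a group came from 3 independent experiments, and libraries with the same replicate number moved together, so the replicate number was also fitted as a block and that value is given wherever it changes the call of a member. CBD at 24 h was not fitted with the block.

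Each library held between 15108132 and 25367834 reads on genes. All 14 pan-neuronal markers were detected, with summed levels of 8247 to 10759 CPM (counts scaled by library size and TMM) over the 30 libraries. The cultures were not neurons alone. The 10 astrocyte markers summed to 2690 to 6736 CPM, the 10 oligodendrocyte lineage markers to 524 to 1222 CPM, and the 8 microglia markers that passed the filter on low counts to 1.30 to 14.3 CPM, with Cx3cr1, Itgam, Ptprc, C1qa and Tyrobp at 0 reads in some libraries. In RNA from whole cultures, fewer interneurons and less RNA per interneuron cannot be told apart.

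The 9 genes lie on 4 chromosomes of mRatBN7.2, and none overlaps another listed gene. Gad1 (ENSRNOG00000000007) is on chromosome 3 at 55369704 to 55410333 and Gad2 (ENSRNOG00000018200) on chromosome 17 at 84763628 to 84826155. Slc32a1 (ENSRNOG00000015393) is on chromosome 3 at 147267373 to 147271844. Dlx1 (ENSRNOG00000001520), at 56356190 to 56360780, and Dlx2 (ENSRNOG00000001519), at 56370483 to 56373597, are neighbours on chromosome 3. Dlx5 (ENSRNOG00000010905) is on chromosome 4 at 34999139 to 35003407, Lhx6 (ENSRNOG00000005996) on chromosome 3 at 19433494 to 19456061, Sst (ENSRNOG00000001837) on chromosome 11 at 76956896 to 76958173, and Npy (ENSRNOG00000046449) on chromosome 4 at 78881264 to 78888495.

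RefSeq promoter sequences, on the build GRCr8, were matched for 7 of the 9 members, all except Dlx2 and Dlx5. The 200 bases before the start are shown for Gad2, whose fall chose the group, for Slc32a1, which acts in the following step and moved less, and for Npy, which had the lowest ratio to vehicle. Capitals mark the letters of the antioxidant response element core TGACNNNGC, which is bound by NRF2, the factor the study was about. The windows are chr17:89671518-89671717 for Gad2, chr3:167687045-167687244 for Slc32a1 and chr4:80211911-80212110 for Npy, all on the plus strand, written 5′ to 3′.
Gad2: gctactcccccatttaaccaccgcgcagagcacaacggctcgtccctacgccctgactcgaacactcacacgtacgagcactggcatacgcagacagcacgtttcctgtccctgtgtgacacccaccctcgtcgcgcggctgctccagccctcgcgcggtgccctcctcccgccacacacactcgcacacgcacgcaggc
Slc32a1: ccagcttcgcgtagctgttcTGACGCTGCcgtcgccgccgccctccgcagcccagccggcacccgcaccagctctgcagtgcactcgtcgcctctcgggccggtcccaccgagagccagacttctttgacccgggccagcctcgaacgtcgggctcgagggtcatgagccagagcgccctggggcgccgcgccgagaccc
Npy: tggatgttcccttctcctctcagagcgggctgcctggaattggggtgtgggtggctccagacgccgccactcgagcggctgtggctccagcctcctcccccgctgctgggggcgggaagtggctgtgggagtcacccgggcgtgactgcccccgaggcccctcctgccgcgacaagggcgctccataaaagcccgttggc
Within the 250 bases before the start, searched on both strands, the core TGACNNNGC was present in Slc32a1 alone among the 7 members, at positions -180 to -172 from the start. Of all 33469 promoters of the table, 10.1% hold it. The cAMP response element TGACGTCA was in none of the 7 windows and in 1.59% of all promoters. These matches are letters in a window and describe no binding. Bases past the start were not searched, so a window without a match does not show that the gene lacks the element. For Gad1 and Lhx6 the start used was not the outermost one of the gene.

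On the scale of CPM over the 30 libraries, the lowest group mean was that of CBD at 24 h for Gad1, Gad2, Dlx5, Sst and Npy, that of DMF at 4 h for Dlx1 and Dlx2, and that of DMF at 24 h for Slc32a1 and Lhx6. Levels are compared here within a gene and not between genes, because transcript lengths were not used. Gad2 ranged from 35.3 ± 0.59 CPM (SD, n = 3) with CBD at 24 h to 63.1 ± 0.71 CPM in its 24 h vehicle, and the next lowest group, CBD at 4 h, had 52.8 ± 7.32 CPM. Gad1 ran from 79.6 ± 4.62 CPM with CBD at 24 h to 148 ± 14.6 CPM in DMSO at 4 h, and its next lowest group was DMF at 24 h, at 115 ± 12.7 CPM. Apart from CBD at 24 h, the groups of Gad1 and of Gad2 formed a sequence in which neighbours did not differ beyond their spread.

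Slc32a1 had a narrow range, from 79.7 ± 15.9 CPM with DMF at 24 h to 98.7 ± 8.41 CPM in DMSO at 24 h, and none of its 9 steps exceeded the SD of both neighbours. The same was true of Dlx1 (28.1 ± 2.08 to 39.9 ± 1.60 CPM), Dlx2 (4.4 ± 1.23 to 8.88 ± 0.79 CPM) and Sst (85.2 ± 31.8 to 138 ± 30.5 CPM). Dlx5, the member with the fewest reads, at 32 in the lowest library, ran from 2.64 ± 1.03 to 4.85 ± 1.28 CPM, with 1 step larger than both SDs, from DMF at 4 h to DMF at 24 h. Lhx6 ran from 19.9 ± 0.87 CPM with DMF at 24 h to 31.5 ± 4.92 CPM with CBD at 4 h. For Lhx6 the step up to CBD at 4 h and the step between the DMSO groups, from 23.2 ± 0.59 CPM at 4 h to 24.7 ± 1.48 CPM at 24 h, exceeded the SDs of both groups. Npy ran from 11 ± 3.86 CPM with CBD at 24 h to 24.3 ± 3.49 CPM in DMSO at 4 h, and its next lowest group was DMF at 24 h, at 16.3 ± 3.17 CPM.

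**Figure D1:**
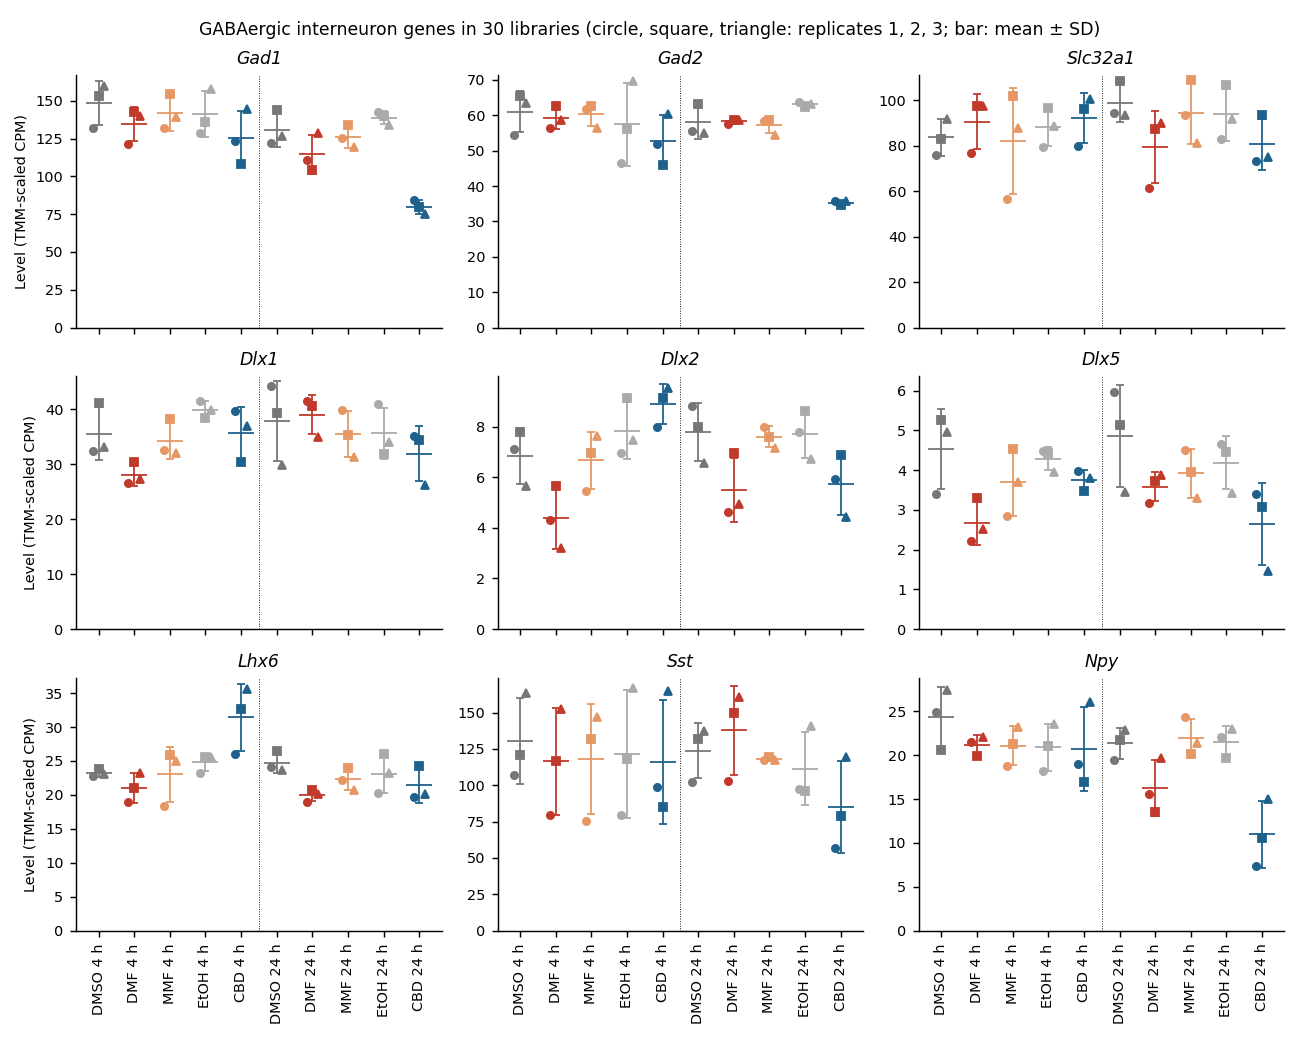
Level of each member in CPM (TMM-scaled, linear axis from 0) in the 10 groups, with the 4 h groups left of the dotted line and the 24 h groups right of it; symbols are the 3 libraries and bars the mean ± SD. Gad2 lies at 35.3 ± 0.59 CPM with CBD at 24 h and at 52.8 CPM or more on average in every other group.

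The members differed in how much of their variation followed the replicate number. For Sst, 55.5% of the variance of log2 CPM over the 30 libraries lay between replicate numbers and 23.7% between the 10 groups. Its mean over the 10 libraries of a replicate number was 91.8, 115 and 147 CPM for numbers 1, 2 and 3. For Slc32a1, 44.8% lay between replicate numbers and 25.1% between groups. Over all genes the medians were 16.7% between replicate numbers and 44.3% between groups. For Gad1 and Gad2 the shares between groups were 83.9% and 81.5%, which include the CBD libraries at 24 h that chose the group. In the 24 libraries without CBD and EtOH at 24 h, the shares between groups were 48.3% for Gad1 and 21.1% for Gad2, beside a median of 44.2% over all genes. Sst had 7.52% between groups and 64.7% between replicate numbers in those libraries, and Dlx2 and Lhx6 had the highest shares between groups among the members, at 70.5% and 69.3%.

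After 24 h of CBD, all 9 members had a lower mean than in the EtOH libraries, by amounts that ran from 7.69% for Lhx6 to 49.2% for Npy. The values below are counts divided by a size factor within the 6 libraries of the comparison. Gad2 was at 675, 657 and 676 in the 3 CBD libraries and at 1205, 1185 and 1199.6 in the 3 EtOH libraries. The CBD mean was 55.9% of the vehicle mean, and the log2 ratio within a replicate number had a mean of -0.84 with an SD of 0.01. Gad1 was at 1590.2, 1514 and 1418 with CBD and at 2692, 2663 and 2550.3 with EtOH. Its CBD mean was 57.2% of vehicle (log2 fold change -0.81). For both decarboxylases the 2 sets of libraries lay far apart, with no overlap.

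The transporter did not follow the decarboxylases to the same extent. Slc32a1 was at 1389.7, 1777 and 1424 with CBD and at 1572, 2029.8 and 1748 with EtOH, so that the groups overlapped and the CBD mean was 85.8% of vehicle (log2 fold change -0.22). The value was lower with CBD in each of the 3 experiments, while the 3 libraries of a group ranged over more than the difference between the means. Npy, which encodes an inhibitory peptide, was at 139, 200 and 285 with CBD and at 416, 373 and 437 with EtOH, without overlap. Its mean was 50.8% of vehicle, and its log2 ratio was -1.58, -0.90 and -0.62 in experiments 1, 2 and 3. Sst was at 1079, 1498 and 2268 with CBD and at 1839.7, 1833 and 2673 with EtOH. The groups overlapped because of the differences between experiments, while each experiment had the lower value with CBD (log2 ratios of -0.77, -0.29 and -0.24).

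Among the transcription factors, Dlx5 was at 64.2, 58.1 and 27.7 with CBD and at 88.2, 84.9 and 65.1 with EtOH, without overlap and with a mean of 62.9% of vehicle. Dlx2 was at 112, 130.1 and 83.9 against 147, 164 and 128, which overlapped, with a mean of 74.4% of vehicle. Dlx1 stood at 89.6% of vehicle, with 1 experiment of 3 higher under CBD, and Lhx6 at 92.3%. Lhx6 was at 373, 461 and 382 with CBD and at 382, 494 and 442 with EtOH. Across the members, 26 of the 27 ratios within a replicate number were below 0. The libraries of the CBD group were all lower for 4 of the 9 members, Gad1, Gad2, Dlx5 and Npy, against 8.59% of all 14079 genes tested. The median log2 fold change was -0.44 over the members and -0.00 over all genes. By the adjusted p of limma, 0.114% of all genes were called in this contrast, and nothing is read from the members' place in it.

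The interneuron genes were not the only neuronal genes that stood lower after 24 h of CBD. All 14 pan-neuronal markers had a negative log2 fold change, between -0.44 and -0.06 with a median of -0.17, and 0 of them were called. Of the 16 excitatory neuron markers, 13 were negative, with a median of -0.21. The astrocyte markers had a median of -0.43 and the activity-regulated genes one of -0.52, again with 0 called. Summed astrocyte levels were 6069, 5438 and 2690 CPM with CBD and 5993, 6355 and 4011 CPM with EtOH, not lower in experiment 1. Summed activity-regulated levels were 148, 167 and 349 CPM with CBD and 287, 264 and 260 CPM with EtOH, higher with CBD in experiment 3. The part of these shifts in the members' values was not tested. Of 20 genes listed for interneuron synapses, channels and migration, 1 was called: Kcnc2, which encodes a fast potassium channel, fell by 1.01 on the log2 scale (SE 0.13, adjusted p = 0.0412). The Kcnc2 call was lost without EtOH 24 h replicate 1, 2 or 3 (adjusted p = 0.269, 0.202 and 0.325) or CBD 24 h replicate 2 (0.152). In the GABA handling, interneuron transcription factor and interneuron subclass lists, 0 of 8, 0 of 18 and 0 of 15 genes tested were called, with medians of -0.15, -0.19 and -0.27.

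**Figure D2:**
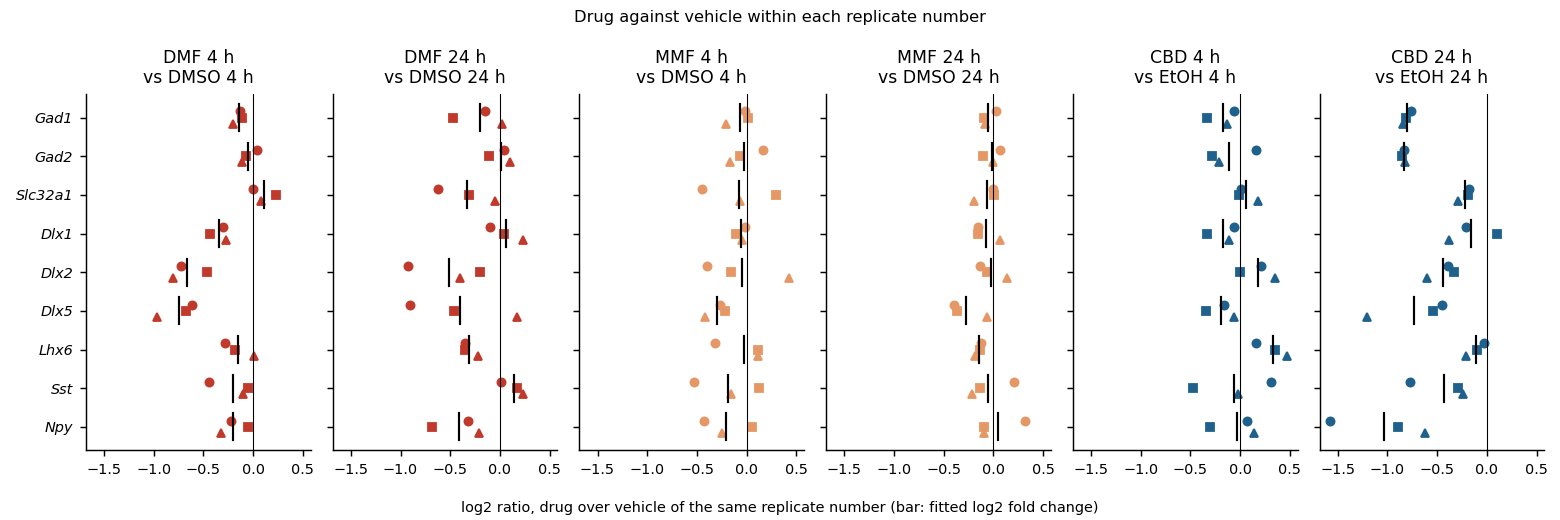
Log2 ratio of drug to vehicle within each replicate number for the 9 members (circle, square and triangle for numbers 1, 2 and 3), with the fitted log2 fold change as a black bar. In the CBD panel at 24 h, 26 of 27 ratios lie below 0, and Gad1 and Gad2 have 3 nearly coincident points at about their fold changes of -0.81 and -0.84.

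After 4 h of CBD, no member was called by limma, where 0.00705% of the 14193 genes tested were. The members' median log2 fold change was -0.06, with 6 of the 9 negative, beside -0.00 over all genes. By unadjusted p, 1 of the 9 was under 0.05, beside 3.97% of all genes. The member was Lhx6, at 512, 643 and 696 with CBD and at 457, 503 and 499.9 with EtOH. It was higher with CBD by 0.33 on the log2 scale (SE 0.12), with an adjusted p of 0.9997. With the replicate block, which called 2.33% of all genes, Lhx6 rose (adjusted p = 0.0194) and no other member was called. Gad2 was at 1019, 905 and 1180.1 with CBD and at 913, 1103 and 1365 with EtOH at this time, which overlapped, and its log2 fold change of -0.11 had a 95% interval of -0.47 to 0.24. Gad1 was lower in each of the 3 experiments, by -0.18 with an interval of -0.44 to 0.09 without the block. With the block the SE of Gad1 was 0.05 and its adjusted p 0.0870. Npy and Sst had log2 fold changes of -0.03 and -0.06.

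After 4 h of DMF, the 3 DLX genes stood lower than in DMSO. Dlx5 was at 44.0, 65.7 and 50.1 with DMF and at 67.7, 105 and 99.1 with DMSO. Every DMF library was below every DMSO library, and the mean was 58.7% of vehicle (log2 fold change -0.75, SE 0.24). Dlx2 was at 85.8, 113 and 64.0 with DMF and at 142, 155 and 113 with DMSO, where the highest DMF and the lowest DMSO library were almost equal. Its mean was 64.0% of vehicle (log2 fold change -0.66, SE 0.23). Dlx1 was at 524, 605 and 545 with DMF and at 649, 819.6 and 661 with DMSO, without overlap, and its mean was 78.7% of vehicle (log2 fold change -0.34, SE 0.11). The 3 genes are homeobox factors that specify interneurons, and all 3 were lower in each of the 3 experiments.

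In the fit without the block, which called 3.41% of all 14208 genes, 0 of the 9 members were called at 4 h of DMF. By unadjusted p, 3 of the 9 were under 0.05, beside 20.1% of all genes. Adjusted p was 0.141 for Dlx1, 0.159 for Dlx2 and 0.129 for Dlx5. DESeq2 and edgeR also called 0 of the 9, beside 1024 and 498 of the 14208 genes. With the replicate block, which called 23.0% of all genes, 5 of the 9 were called, all lower: Dlx1 (adjusted p = 0.00392), Dlx2 (0.00584), Dlx5 (0.00828), Sst (0.0427) and Gad1 (0.0462). Under the other settings tried, Dlx1, Dlx2 and Dlx5 stayed negative, with log2 fold changes of -0.40 to -0.23, -0.86 to -0.46 and -0.95 to -0.63. For Sst the fitted value was -0.20 and ran from -0.42 to 0.05, the sign turning without DMF 4 h replicate 1, and for Gad1 it was -0.15. The libraries of the DMF group were all lower for 3 of the 9 members, against 13.3% of all genes. The members' median was -0.20 and that of all genes 0.00.

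Gad2, Slc32a1, Npy and Lhx6 were called by neither fit at 4 h of DMF. Gad2 was at 1115, 1245 and 1172 against 1087, 1306 and 1269, a log2 fold change of -0.05 with a 95% interval of -0.26 to 0.16. Slc32a1 was the only positive member, by 0.10 (interval -0.16 to 0.37), at 1522, 1946 and 1945 against 1522, 1659 and 1839. Npy was at 426, 396 and 439 against 498, 410.4 and 549, and Lhx6 at 374, 419 and 464 against 455, 477 and 460.2, both overlapping, with log2 fold changes of -0.20 and -0.15.

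Related genes at 4 h of DMF were mostly uncalled without the block. Among 18 other interneuron transcription factors, Zeb2, a factor that directs the migration of interneurons, fell by 0.45 on the log2 scale (adjusted p = 0.0447), and the list's median was -0.28. Among 20 genes for synapses, channels and migration, Ackr3, a chemokine receptor, fell by 1.00 (adjusted p = 0.0193). In the GABA handling list of 8 and the subclass list of 16 genes tested, 0 were called. Glutamatergic factors were lower as well: 3 of 16 excitatory neuron markers fell, Neurod1 by 0.68, Neurod6 by 0.46 and Fezf2 by 0.38 (adjusted p = 0.0241, 0.0343 and 0.0363), and the list's median was -0.30. Of 14 pan-neuronal markers 1 fell, Tubb3, by 0.64. None of these 6 calls held in every fit that left out 1 library, and those of Neurod6, Fezf2 and Tubb3 held in none. With the block, beside the 23.0% of all genes, 6 of 18 interneuron transcription factors and 4 of 20 synapse, channel and migration genes were called, all lower, while the GABA handling list had 1 higher and 0 lower of 8 and the subclass list 1 higher and 2 lower of 16. Of the excitatory markers 8 of 16 were then lower and 0 higher, and of the pan-neuronal markers 1 was higher and 1 lower of 14. The astrocyte list had 3 lower of 10, the oligodendrocyte lineage list 3 lower of 9 and the proliferation list 4 higher of 10, with 0 in the other direction. The activity-regulated genes had a median of -1.07 with 0 of 11 called, or 7 lower and 1 higher with the block. Their summed level was 1114, 262 and 334 CPM in the DMSO libraries and 348, 305 and 360 CPM in the DMF libraries, so that DMSO replicate 1 stood apart and DMF was the higher in experiments 2 and 3. The part of these changes in the values of the DLX genes was not tested.

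After 24 h of DMF, 4 members stood lower than in DMSO in all 3 experiments, Slc32a1, Dlx2, Lhx6 and Npy. Lhx6 was at 349, 381 and 371 with DMF and at 446, 488 and 434 with DMSO, without overlap, and its mean was 80.6% of vehicle (log2 fold change -0.31, SE 0.09). Npy was at 286, 249 and 363 against 359, 401 and 420.1, with slight overlap, and its mean was 76.1% of vehicle (log2 fold change -0.41, SE 0.14). Slc32a1 was at 1128, 1610.1 and 1662 against 1738, 2004 and 1718, without overlap (log2 fold change -0.33, SE 0.14), and its ratio was widest in experiment 1, at -0.62, and close to 0 in experiment 3, at -0.05. Dlx2 was at 85.1, 128 and 91.0 against 162, 148 and 121, at 70.7% of vehicle (log2 fold change -0.51, SE 0.19).

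Without the block, 0 of the 9 members were called at 24 h of DMF, where 3.97% of the 13967 genes were. By unadjusted p, 4 of the 9 were under 0.05, beside 17.4% of all genes. Adjusted p was 0.0999 for Lhx6, 0.175 for Npy, 0.206 for Dlx2 and 0.269 for Slc32a1. DESeq2 and edgeR called 0 of the 9, beside 852 and 535 of the 13967 genes. With the block, which called 12.9% of all genes, 3 of the 9 were called, all lower: Npy (adjusted p = 0.0313), Lhx6 (0.0315) and Slc32a1 (0.0415). Dlx2 had 0.065. Npy was also called without DMF replicate 3 (log2 fold change -0.56, adjusted p = 0.0204), in a fit that called 1165 of 14133 genes. The DMF libraries were all lower for 2 of the 9 members, against 11.5% of all genes. The median over the members was -0.31 and over all genes -0.01.

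Gad2 showed no difference at 24 h of DMF that the libraries could resolve. It was at 1058, 1082 and 1082 with DMF and at 1026, 1169.9 and 1011 with DMSO, and its log2 fold change of 0.01 had a 95% interval of -0.16 to 0.18. Gad1 was at 2038, 1916 and 2371 against 2256, 2656 and 2332, a fold change of -0.20 with an interval of -0.41 to 0.02. Dlx1, lower at 4 h, was at 761, 747 and 644 against 814, 726 and 549 (log2 fold change 0.06). Dlx5 was at 58.4, 68.4 and 71.3 against 110.1, 94.7 and 63.4, lower in 2 of the 3 experiments. Sst was higher in each of the 3, by 0.14 on average with an interval of -0.24 to 0.52. These intervals are without the block. With the block Gad1 had an SE of 0.08 (adjusted p = 0.154) and Sst one of 0.06 (adjusted p = 0.155).

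Without the block, the other interneuron genes called at 24 h of DMF were all lower. Of 15 subclass markers 3 fell: Ndnf, a marker of neurogliaform cells, by 0.83, Cck, a peptide gene, by 0.60, and Reln, which encodes an extracellular signal, by 0.45 (adjusted p = 0.0050, 0.0080 and 0.0450). Of 20 genes for synapses, channels and migration 2 fell, Elfn1, a synapse organiser, by 0.74 and Nxph1, a secreted ligand of neurexins, by 0.46. Of 18 transcription factors Satb1 fell by 0.32, and of 8 GABA handling genes the GABA transporter gene Slc6a11, expressed mainly in astrocytes, fell by 0.36. The medians of these 4 lists lay between -0.26 and -0.08. Markers of other cells moved at the same time. Of 10 proliferation markers 9 fell (median -0.97), of 9 oligodendrocyte lineage markers 4 fell (log2 fold changes of -1.87 for Gpr17, -1.56 for Pdgfra and -1.36 for Sox10 among them), of 10 astrocyte markers 2 fell (-0.73 for Fabp7 and -0.65 for Aldh1l1), and of 11 activity-regulated genes 6 rose (1.76 for Arc, 1.63 for Egr1 and 1.30 for Nptx2 among them). Of 16 excitatory and 14 pan-neuronal markers 0 were called, with medians of -0.22 and -0.15. Of the calls named here, those of Ndnf, Pdgfra, Sox10, Egr1 and Nptx2 held in every fit that left out 1 library, and each of the others was lost in at least 1. With the block, beside the 12.9% of all genes, the subclass list had 1 higher and 8 lower of 15, the synapse, channel and migration list 2 higher and 7 lower of 20, the transcription factors 0 higher and 6 lower of 18, and the GABA handling list 1 higher and 3 lower of 8. The excitatory markers then had 2 higher and 7 lower of 16 and the pan-neuronal markers 0 higher and 5 lower of 14. The astrocyte list had 1 higher and 5 lower of 10 and the oligodendrocyte lineage list 5 lower of 9, while all 10 proliferation markers were lower and 10 of 11 activity-regulated genes higher. The part of these changes in the members' values was not tested.

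**Figure D3:**
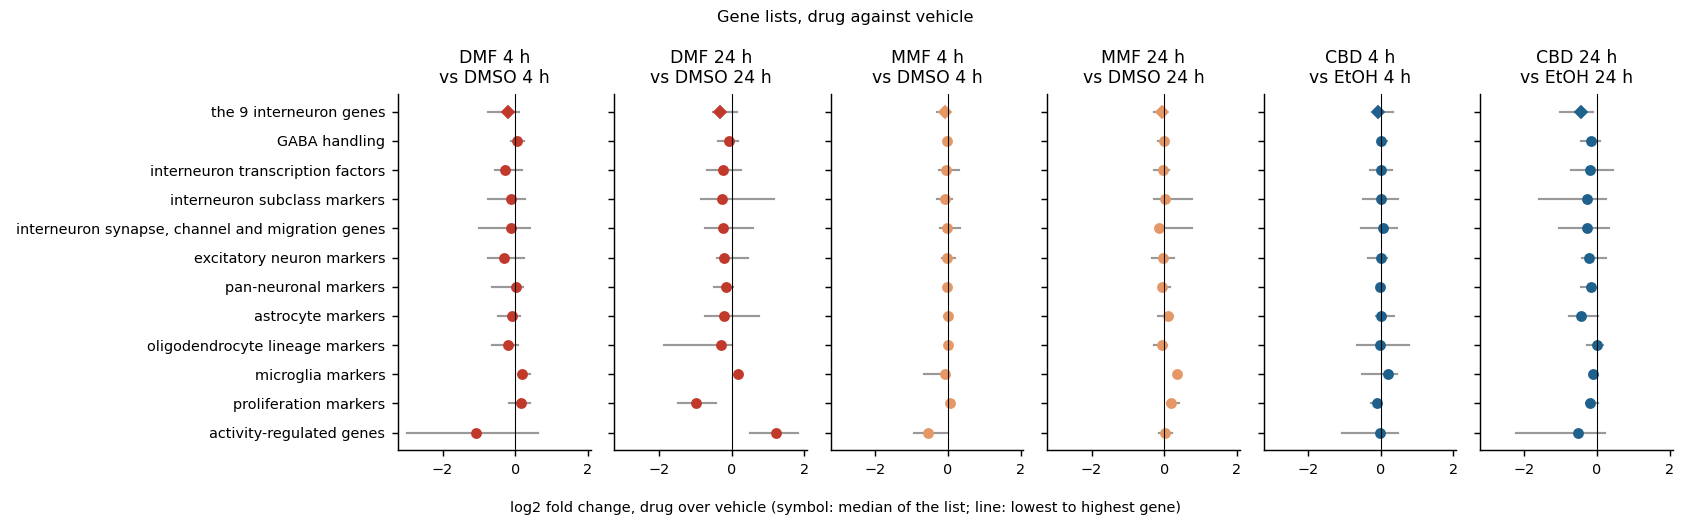
Median log2 fold change (symbol) and the range from the lowest to the highest gene tested (line) for the 9 interneuron genes and 11 related lists, for each drug against its vehicle. The members' median is -0.44 with CBD at 24 h, -0.20 and -0.31 with DMF at 4 and 24 h, and between -0.07 and -0.05 with MMF and with CBD at 4 h.

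Over time, Dlx1 was the one member called by limma without the block when each comparison was fitted on all of its own libraries and on no others. It rose between 4 and 24 h of DMF, from 539.6, 622 and 558 to 847, 830.4 and 718, by 0.48 on the log2 scale (SE 0.10, adjusted p = 0.0159), higher in all 3 experiments. Of all 14283 genes, 15.5% were called there. The call was lost without DMF 4 h replicate 1 (adjusted p = 0.0560), without DMF 24 h replicate 1 (0.050) and without DMF 24 h replicate 2 (0.0689). With the block, which called 32.3% of all genes, 5 members were called: Dlx1 (adjusted p = 0.00174) and Sst (0.0132) rose, and Npy (0.0163), Gad1 (0.0362) and Slc32a1 (0.0419) fell. Their log2 fold changes were 0.48, 0.27, -0.39, -0.23 and -0.19. The fit without the block also called Npy when DMF 24 h replicate 3 was left out (log2 fold change -0.54, adjusted p = 0.0259). With that library left out, 1772 of 14378 genes were called.

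In DMSO alone, no member was called between 4 and 24 h by limma, DESeq2 or edgeR, where limma called 0.0% of 13968 genes. Of these genes DESeq2 called 48 and edgeR 0. By unadjusted p, 1 of the 9 members was under 0.05, beside 9.75% of all genes. The member was Slc32a1, at 1371, 1489.5 and 1648 at 4 h and at 1692, 1951 and 1681 at 24 h (log2 difference 0.24, 95% interval 0.04 to 0.44, adjusted p = 0.464). The difference between the DMF effects at 24 and 4 h was tested in the 12 libraries of DMF and DMSO. No member was called, beside 4.12% of all 14432 genes. An unadjusted p under 0.05 was found for 1 of 9, beside 19.3% of all genes. Slc32a1 had the lowest adjusted p, 0.258, with its effect 0.43 lower at 24 h than at 4 h (SE 0.20). With the block, which called 1904 of the 14432 genes, its adjusted p was 0.0297, and no other member was called. Dlx1 had its effect 0.40 higher at 24 h (SE 0.19, adjusted p = 0.290, and 0.0824 with the block).

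MMF was given at the dose of DMF, and no member was called with it at either time. At 4 h limma called 0 of the 9, and 0.0% of all 14032 genes. An unadjusted p under 0.05 was found for 0 of the 9, beside 0.257% of all genes. Gad2 was at 1115, 1141 and 1028 with MMF and at 993, 1192 and 1158 with DMSO, and its log2 fold change of -0.02 had a 95% interval of -0.24 to 0.20. All 9 fold changes were negative, between -0.30 for Dlx5 and -0.02 for Gad2. Of all genes 55.7% were negative, and the median was -0.07 over the members and -0.01 over all genes. Negative values were also found for 8 of 8 GABA handling genes, 12 of 14 pan-neuronal markers and 4 of 10 astrocyte markers. Dlx5 was at 51.3, 82.7 and 67.3 against 61.9, 96.0 and 90.4 (interval -0.87 to 0.27). At 24 h limma called 0 of the 9, beside 0.00707% of 14137 genes. By unadjusted p, 0 of 9 were under 0.05, beside 4.43% of all genes. The members' fold changes ran from -0.28 for Dlx5 to 0.04 for Npy. Gad2 was at 1131, 1142 and 1056 with MMF and at 1080.0, 1229 and 1061 with DMSO. DESeq2, edgeR and the replicate block called no member at either time. Over all genes they called 0, 0 and 0 of 14032 at 4 h, and 8, 1 and 195 of 14137 at 24 h. Between 4 and 24 h of MMF 0 of the 9 were called, as were 0.0% of 14171 genes. An unadjusted p under 0.05 was found for 0 members and 10.5% of all genes. The MMF effects at the 2 times differed for 0 of the 9, and for 0.0% of 14413 genes. For this difference, 0 members and 0.909% of all genes had an unadjusted p under 0.05.

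DMF and MMF differ by 1 methyl ester, were given at the same dose and share the DMSO libraries, so they were compared directly at each time, which gave 18 differences for the 9 members. Without the block limma called 0 of them, beside 1.61% of 14200 genes at 4 h and 3.56% of 14233 genes at 24 h. An unadjusted p under 0.05 was found for 2 of 9 at each time, beside 17.4% of all genes at 4 h and 17.3% at 24 h. At 4 h Dlx1 was at 519, 599 and 538 with DMF and at 637, 756 and 635 with MMF (log2 difference -0.29, 95% interval -0.53 to -0.05, adjusted p = 0.202). Dlx2 was at 85.0, 111.4 and 63.3 with DMF and at 107, 138 and 151 with MMF, which overlapped (log2 difference -0.62, interval -1.17 to -0.08, adjusted p = 0.222). With the replicate block, which called 23.6% of all genes at 4 h, both were called lower with DMF, Dlx1 at an adjusted p of 0.00917 and Dlx2 at 0.0153. Dlx5 had a difference of -0.46 (interval -1.02 to 0.11 without the block) and was not called by either fit. With the block its SE was 0.18 and its adjusted p 0.0759.

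At 24 h Npy was at 316, 275 and 401 with DMF and at 497, 413 and 435 with MMF (log2 difference -0.45, interval -0.78 to -0.12, adjusted p = 0.153). With the block, which called 12.2% of all genes, Npy was called (adjusted p = 0.0298) and no other member was. Npy was also called without DMF 24 h replicate 3 (log2 difference -0.60, adjusted p = 0.0305), in a fit that called 711 of 14419 genes. Sst was called, as higher with DMF, without DMF 24 h replicate 1 (log2 difference 0.38, adjusted p = 0.0300, against 0.19 with all libraries). That fit called 346 of 14428 genes. Dlx2 was at 94.0, 142 and 100 with DMF and at 163, 156 and 146 with MMF (interval -0.89 to -0.09). It was not called with the block either (adjusted p = 0.0681). For Gad2 the 2 esters gave log2 differences of -0.03 at 4 h (interval -0.22 to 0.15) and 0.02 at 24 h (interval -0.13 to 0.17). For Gad1 they were -0.08 (interval -0.30 to 0.14) and -0.15 (interval -0.35 to 0.05), and for Slc32a1 0.17 (interval -0.31 to 0.66) and -0.27 (interval -0.62 to 0.09). With the block Slc32a1 had an SE of 0.08 at 4 h (adjusted p = 0.115) and of 0.11 at 24 h (adjusted p = 0.173). Lhx6 and Npy at 4 h, and Dlx1, Dlx5 and Lhx6 at 24 h, had intervals that included 0.

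**Figure D4:**
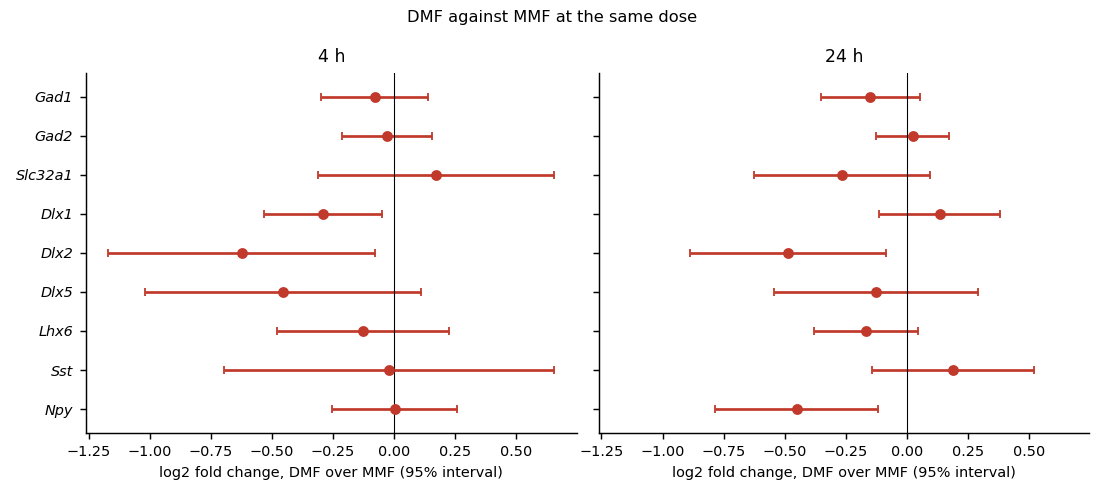
Log2 fold change of DMF over MMF for each member at 4 h (left) and 24 h (right), with the 95% interval of limma without the replicate block. Intervals lie below 0 for Dlx1 and Dlx2 at 4 h and for Dlx2 and Npy at 24 h, and that of Gad2 spans -0.22 to 0.15 at 4 h and -0.13 to 0.17 at 24 h.

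Across the 30 libraries, the members did not vary as 1 unit. Correlations are given as descriptions, without p-values, because the libraries share experiments and treatments and because the 3 CBD libraries at 24 h lie apart for some members. Gad1 and Gad2 had a Pearson r of 0.90 (Spearman rho 0.82), and r was 0.77 once group means were removed and 0.66 in the 27 libraries without CBD at 24 h. Slc32a1 had an r of 0.33 with Gad1 and 0.23 with Gad2. It went more with Lhx6, at an r of 0.64, or 0.87 with group means removed. Dlx1 had an r of 0.76 with Dlx5 and 0.54 with its neighbour Dlx2. Sst had an r of 0.63 with Npy (0.73 with group means removed and 0.39 without CBD at 24 h). Between the DLX genes and the peptide genes r ran from -0.03 for Dlx1 with Npy to 0.28 for Dlx5 with Npy. With group means removed these values were all negative, from -0.43 for Dlx5 with Npy to -0.11 for Dlx2 with Sst.

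Each gene with a mean of at least 1 CPM, 13281 in all, was compared with the mean z-score of Gad1, Gad2 and Slc32a1 over the 30 libraries. Of the other members, Npy had an r of 0.77 (rho 0.63), Sst 0.63 (rho 0.61), Dlx5 0.60 (rho 0.57), Lhx6 0.41 (rho 0.49), Dlx2 0.32 (rho 0.33) and Dlx1 0.21 (rho 0.12). The 5 genes outside the group with the highest r were Prdx2, a peroxiredoxin gene (0.87, rho 0.81), Has3, a hyaluronan synthase gene (0.81, rho 0.67), Gucy1a1, a subunit of soluble guanylate cyclase (0.78, rho 0.58), Arf5, a small GTPase gene (0.78, rho 0.64), and Cgref1 (0.78, rho 0.49). Without the 3 CBD libraries at 24 h their r was 0.71, 0.55, 0.50, 0.48 and 0.37, and that of Npy 0.58. In the same libraries r was 0.60 for Sst, 0.40 for Dlx5, 0.29 for Lhx6, 0.13 for Dlx2 and 0.05 for Dlx1. With group means removed, r was 0.68 for Prdx2, 0.60 for Has3, 0.24 for Gucy1a1, 0.48 for Arf5 and 0.47 for Cgref1. The order of the members then changed, with r of 0.67 for Sst, 0.61 for Lhx6 and 0.45 for Dlx5. It was 0.32 for Npy, 0.25 for Dlx1 and 0.22 for Dlx2.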

How the data were processed

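Poly(A)+ RNA of 30 libraries was sequenced as read pairs. The authors checked reads with FastQC 0.12.1, trimmed adapters and low-quality ends (cutadapt 4.4, Trimmomatic 0.39), mapped the reads with HISAT2 2.2.1 on mRatBN7.2 and counted them on Ensembl genes with HTSeq 2.0.3. The strand setting and the treatment of reads shared between genes are not given in the sources used here. In R 4.3.1 with DESeq2 1.40.2 they compared pairs of groups. Each deposited table holds, as signal values, counts that the authors divided by a size factor per library within its 6 libraries, and also their fold changes and p-values, which were not used. All values (100%) were whole multiples of 1 read within 0.01, and 0 values differed where a library stood in several tables. Of the tables, 15 were used, and 4 that set CBD against DMF or MMF, with other vehicles and doses, were not.

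Groups were compared with limma 3.58.1 (empirical Bayes with trend) in R 4.3.3 on log2(value + 1), after filterByExpr of edgeR 4.0.16, with Benjamini-Hochberg adjustment over all genes tested. A gene is called at an adjusted p under 0.05. Fold changes are on that scale, which understates changes of low genes. All 9 members passed the filter in every comparison. Alternatives were edgeR's quasi-likelihood test and DESeq2 1.42.0 on recovered reads, TMM scaling, no filter, a pseudocount of 0.1, the spread from all 30 libraries, the replicate number as a block, and leaving out each library. Interactions used 12 libraries. Levels are TMM-scaled CPM. On simulated counts with 200 changed genes, limma called 169 of them among 178 calls for DMF against DMSO at 24 h (13862 genes), and 121 among 125 for the interaction (14310 genes). The raised and lowered genes had median fitted log2 fold changes of 0.97 and -0.99, or 1.02 and -0.98 for the interaction. No effect of the replicate number was simulated. The members' DMF changes were smaller, so these rates do not apply to them.

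Replicate numbers were taken to pair the samples. Deviations from group means of same-numbered libraries correlated at 0.13 to 0.67 in the 11 pairs of groups, each above the 0.1 set for pairing. Libraries with different numbers reached 0.185, also above 0.1. For MMF against DMSO at 4 h, number 2 had 0.129, below the highest value between numbers, 0.134. For DMSO at 24 h against 4 h, number 1 had 0.162, below 0.185. The members and the lists were chosen with earlier results of these data known. Named genes are all members, the called genes of each list (at most 3 per direction), and the 5 genes most like the GABA genes. Figures were drawn in Python 3.11.15 with matplotlib 3.10.9.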

Additional observations from a re-analysis of the deposited data

Results flagged for a closer look

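For 2 members the CBD ratios within replicate numbers pointed up in all 3 experiments at 4 h and down in all 3 at 24 h. The difference between the times was not tested, since the 24 h values were used to choose the genes. For Lhx6 the log2 fold change was 0.33 at 4 h and -0.11 at 24 h, a difference of -0.45. For Dlx2 it was 0.18 and -0.44, a difference of -0.62, although its ratio in experiment 2 at 4 h was close to 0, with 179 in both libraries. Groups of 3 libraries were too small for a test of single outlying samples.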

How the results depend on the processing

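The replicate block moved the number of members called from 0 to 5 for DMF at 4 h, from 0 to 3 for DMF at 24 h, from 0 to 1 for CBD at 4 h, from 0 to 2 for DMF against MMF at 4 h, from 0 to 1 for DMF against MMF at 24 h, from 1 to 5 for DMF between 4 and 24 h and from 0 to 1 for the DMF interaction, and it changed no other count. With the spread taken from all 30 libraries, 1 member was called for DMF at 4 h, Dlx2 (adjusted p = 0.0354). That setting called 1517 of 14930 genes. Leaving out 1 library gave 0 to 1 members called for DMF at 24 h, 0 to 1 for DMF against MMF at 24 h and 0 to 2 for DMF between the times. The members' median log2 fold change for CBD at 24 h was -0.44 and ran from -0.58 to -0.36 when 1 library was left out. The fall of Gad2 in that contrast chose the group, so this range is a description only. TMM scaling, no filter, a pseudocount of 0.1, DESeq2 and edgeR left the count of members called as it was in each comparison where they were run. DESeq2 and TMM scaling were not run for the interactions, and CBD at 24 h was run only with TMM scaling, with a pseudocount of 0.1, and with 1 library left out. The shares of variance between groups without CBD and EtOH at 24 h, and the likeness without CBD at 24 h, were chosen once the data were known. Over all genes, the block raised the calls from 485 to 3274 for DMF at 4 h, from 554 to 1803 for DMF at 24 h, from 1 to 195 for MMF at 24 h and from 1 to 330 for CBD at 4 h, and leaving out 1 library gave 28 to 154 and 141 to 1165 for the DMF comparisons. For the DMF interaction the block raised the calls over all genes from 594 to 1904. For CBD at 24 h, 16 genes were called and 0 to 116 with 1 library left out. Dlx2 and Dlx5, with as few as 69 and 32 reads in a library, carry the widest counting error.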
